A study of Mus musculus with 18 samples.

Results

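The 9 genes described here were the transforming growth factor beta (TGF-beta) ligands Tgfb1, Tgfb2 and Tgfb3, the receptors Tgfbr1 and Tgfbr2, the signal transducers Smad3 and Smad7, and the inhibitors of DNA binding Id1 and Id3. They were chosen by name, as the rows of the gene count table that carry these symbols. All 9 were among the 24421 genes listed, and all 9 were among the 13507 genes that passed a filter on low counts and were tested. The lowest read count of any member in any library was 112, for Tgfb2.

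RNA was sequenced from 4T1, a mouse mammary carcinoma line whose strain the labels give as BALB/cfC3H and whose genotype they give as wild type. It was also sequenced from 4T1R1 and 4T1R2, populations of 4T1 that survived repeated exposure to 17-DMAG and were obtained independently of each other. 17-DMAG inhibits the chaperone HSP90. Untreated cells and cells given 1.5 µM 17-DMAG were sequenced from all 3 populations, which makes 6 groups of 3 libraries. The sample records give 48 h of exposure before RNA extraction, whereas the text for the whole series gives 2 h, and the conditions of selection differ between these sources too. No age applies to these cultured cells. 4T1R1 and 4T1R2 are each 1 selected population, and the sources used here do not call them clones, so the 3 libraries of a group repeat the same population.

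The libraries held 23354461 to 55094630 counted reads, of which 9.54% to 15.6% belonged to the ribosomal precursor Rn45s. In the treated 4T1 group, replicates 1 and 2 agreed within sampling noise (chi-square per gene 1.1, against 2.04 to 2.22 in the 17 other replicate pairs). They were counted as 1 sample by their mean, so that n = 2 there and n = 3 elsewhere. Hspa1b, a chaperone gene that HSP90 inhibitors induce, rose from 490.4 to 16910 normalized counts in 4T1, from 465.1 to 4348 in 4T1R1 and from 675.3 to 3302 in 4T1R2. Of 7 mammary epithelial markers, Krt8, Krt18, Cdh1, Epcam, Krt19 and Krt14 were present, and Krt5 stayed at or under 3 counts. Their sum was 62040 to 62840 normalized counts in untreated 4T1, 43050 to 44930 in untreated 4T1R1 and 48930 to 49740 in untreated 4T1R2. The markers did not all go this way. In that order of groups, means were 23570, 16280 and 17670 for Krt8 and 24630, 14180 and 15440 for Krt18. Krt19 had 1415, 1147 and 1073, and Epcam 1521, 757.5 and 1415. Krt14 was higher in both selected populations, at 142.8, 214.2 and 364.8. Cdh1 had 11140, 11240 and 13480, and its 4T1 and 4T1R1 libraries overlapped. The labels number the 4T1R1 libraries in a separate series from the 4T1 and 4T1R2 libraries. What sets 4T1R1 apart and what sets that series apart therefore cannot be told apart.

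TGF-beta ligands are secreted in a latent form and, once released, bind the type II receptor Tgfbr2, which then activates the type I receptor Tgfbr1. The activated receptor phosphorylates Smad2 and Smad3, which join Smad4 in the nucleus and change transcription, while Smad7 is induced by the pathway and dampens it. ID proteins lack a DNA-binding domain, bind bHLH transcription factors and keep them from DNA, and are well known as targets of the related BMP ligands and, depending on the cell, of TGF-beta. In mammary carcinoma cells this pathway is known for effects on growth arrest, migration and epithelial identity.

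The stretches before the transcription start are shown for Id3, Smad3, Tgfb1, Tgfbr2 and both starts of Tgfbr1, the members with a promoter window that fell (Id3, Smad3, Tgfb1) or rose (both receptors) after 17-DMAG in every population. The RefSeq table (GRCm38.p6) held promoter windows for 6 of the 9 members, Tgfb1, Tgfb2, Tgfbr1, Tgfbr2, Smad3 and Id3. Each line gives the 250 bases before the RefSeq start, which need not be the GENCODE start used for gene positions elsewhere, 5′ to 3′ on the gene's strand, with capitals on the matches named after the lines.
Id3, chr4:136143572-136143821, + strand: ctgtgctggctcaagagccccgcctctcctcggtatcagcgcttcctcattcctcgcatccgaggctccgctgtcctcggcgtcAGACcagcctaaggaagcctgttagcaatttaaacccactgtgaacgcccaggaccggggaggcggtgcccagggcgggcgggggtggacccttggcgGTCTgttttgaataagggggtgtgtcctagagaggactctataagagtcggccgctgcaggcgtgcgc
Smad3, chr9:63757995-63758244, − strand: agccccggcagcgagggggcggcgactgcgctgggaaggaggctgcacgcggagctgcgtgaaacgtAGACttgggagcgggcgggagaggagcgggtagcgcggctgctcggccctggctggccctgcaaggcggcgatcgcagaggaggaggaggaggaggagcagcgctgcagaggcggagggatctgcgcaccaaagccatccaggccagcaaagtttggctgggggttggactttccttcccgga
Tgfbr2, chr9:116175364-116175613, − strand: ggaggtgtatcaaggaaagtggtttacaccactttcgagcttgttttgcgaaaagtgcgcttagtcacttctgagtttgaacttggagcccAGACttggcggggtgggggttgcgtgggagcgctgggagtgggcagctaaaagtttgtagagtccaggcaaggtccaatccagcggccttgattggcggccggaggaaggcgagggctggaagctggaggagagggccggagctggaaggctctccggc
Tgfb1, chr7:25686752-25687001, + strand: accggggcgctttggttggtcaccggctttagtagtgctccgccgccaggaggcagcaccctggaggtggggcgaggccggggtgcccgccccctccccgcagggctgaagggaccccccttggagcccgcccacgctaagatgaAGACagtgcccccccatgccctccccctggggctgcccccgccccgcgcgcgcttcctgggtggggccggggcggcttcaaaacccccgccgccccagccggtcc
Tgfbr1 upstream start, chr4:47352972-47353221, + strand: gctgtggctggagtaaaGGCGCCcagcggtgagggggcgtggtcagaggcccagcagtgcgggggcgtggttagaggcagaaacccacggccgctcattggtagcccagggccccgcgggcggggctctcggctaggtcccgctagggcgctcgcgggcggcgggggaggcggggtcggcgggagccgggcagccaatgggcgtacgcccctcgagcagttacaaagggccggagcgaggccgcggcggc
Tgfbr1 downstream start, chr4:47385966-47386215, + strand: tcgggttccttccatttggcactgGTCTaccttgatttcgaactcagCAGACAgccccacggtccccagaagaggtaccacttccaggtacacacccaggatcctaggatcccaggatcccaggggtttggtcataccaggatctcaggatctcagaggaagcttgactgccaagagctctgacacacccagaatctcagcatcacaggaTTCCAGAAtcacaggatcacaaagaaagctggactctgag
The capitals mark the SMAD box AGAC (GTCT on the other strand), the CAGA box CAGACA, which contains it, the heat shock element core TTCNNGAA and, in the upstream Tgfbr1 stretch, the GC-rich SMAD element GGCGCC. Within windows from 250 bases before to 50 after the start, AGAC occurred in 88.0% of all 32817 promoters. CAGACA occurred in 21.0% and TTCNNGAA in 8.51%, on either strand. Id3 held 3 AGAC boxes, at -166, -68 and 22 from the start, and Smad3 and Tgfbr2 held 1 each, at -183 and -159. The downstream Tgfbr1 start had CAGACA at -203 and TTCCAGAA at -40. The upstream Tgfbr1 window held neither SMAD nor CAGA box and no heat shock core. Tgfb1 held AGAC at -105, and Tgfb2 held CAGACA at -204 among 3 SMAD boxes. The SMAD motif of BMP-responsive genes, GGCGCC, was in 11.9% of promoters and, among the members, in the upstream Tgfbr1 window. The head-to-head heat shock core GAANNTTC was in 7.86% of promoters, the palindrome GTCTAGAC was in 0.213%, and neither was in a member's window. These matches describe letters only.

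Levels between genes are compared here per kilobase of exon, as normalized counts divided by the length of the union of a gene's exons (GENCODE vM21, GRCm38). A normalized count is a read count divided by the library's TMM-scaled total and multiplied by the mean of those totals, 30970000. In untreated 4T1 the receptor gene Tgfbr2 and the regulator Id1 had the most signal per kilobase, 679.2 ± 13.6 and 674.5 ± 15 (SD, n = 3), which lie within 1 SD of each other. Smad3 stood at 558.4 ± 6.8 and Id3 at 494.7 ± 10.9 per kilobase. Tgfb1 (412 ± 4.15), Tgfbr1 (406.6 ± 35.3) and Smad7 (381.1 ± 15.6) formed a middle group. Its neighbours differed by less than the SD of Tgfbr1, but by more than the SDs of Tgfb1 and of Smad7. Tgfb3 had 278.8 ± 13.0 and Tgfb2 28.17 ± 2.99 per kilobase, so that Tgfb2 was the weakest ligand gene. In untreated 4T1R2 the order changed, with Id1 at 1736 ± 56.4 and Id3 at 946.7 ± 85.3 per kilobase above Tgfbr2 at 524.1 ± 9.63.

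Across the 6 group means, Id1 varied most, 4.95-fold, followed by Tgfb3 (3.56-fold), Id3 (3.45-fold), Smad7 (2.51-fold) and Smad3 (2.08-fold). Tgfbr2 spanned 1.86-fold, Tgfb1 1.64-fold, Tgfb2 1.45-fold and Tgfbr1 1.34-fold. Id1, Tgfb3, Id3, Smad7, Smad3 and Tgfb1 all had their lowest mean in 17-DMAG-treated 4T1. The receptors Tgfbr1 and Tgfbr2 had their highest mean in that group and their lowest in untreated 4T1R2. For Id1 the groups stood in the order untreated 4T1R2, treated 4T1R2, untreated 4T1R1, treated 4T1R1, untreated 4T1 and treated 4T1, and no neighbours in this order overlapped. The order of Id3 differed only in that untreated 4T1R1 and treated 4T1R2 changed places, and the libraries of these neighbours overlapped.

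**Figure D1:**
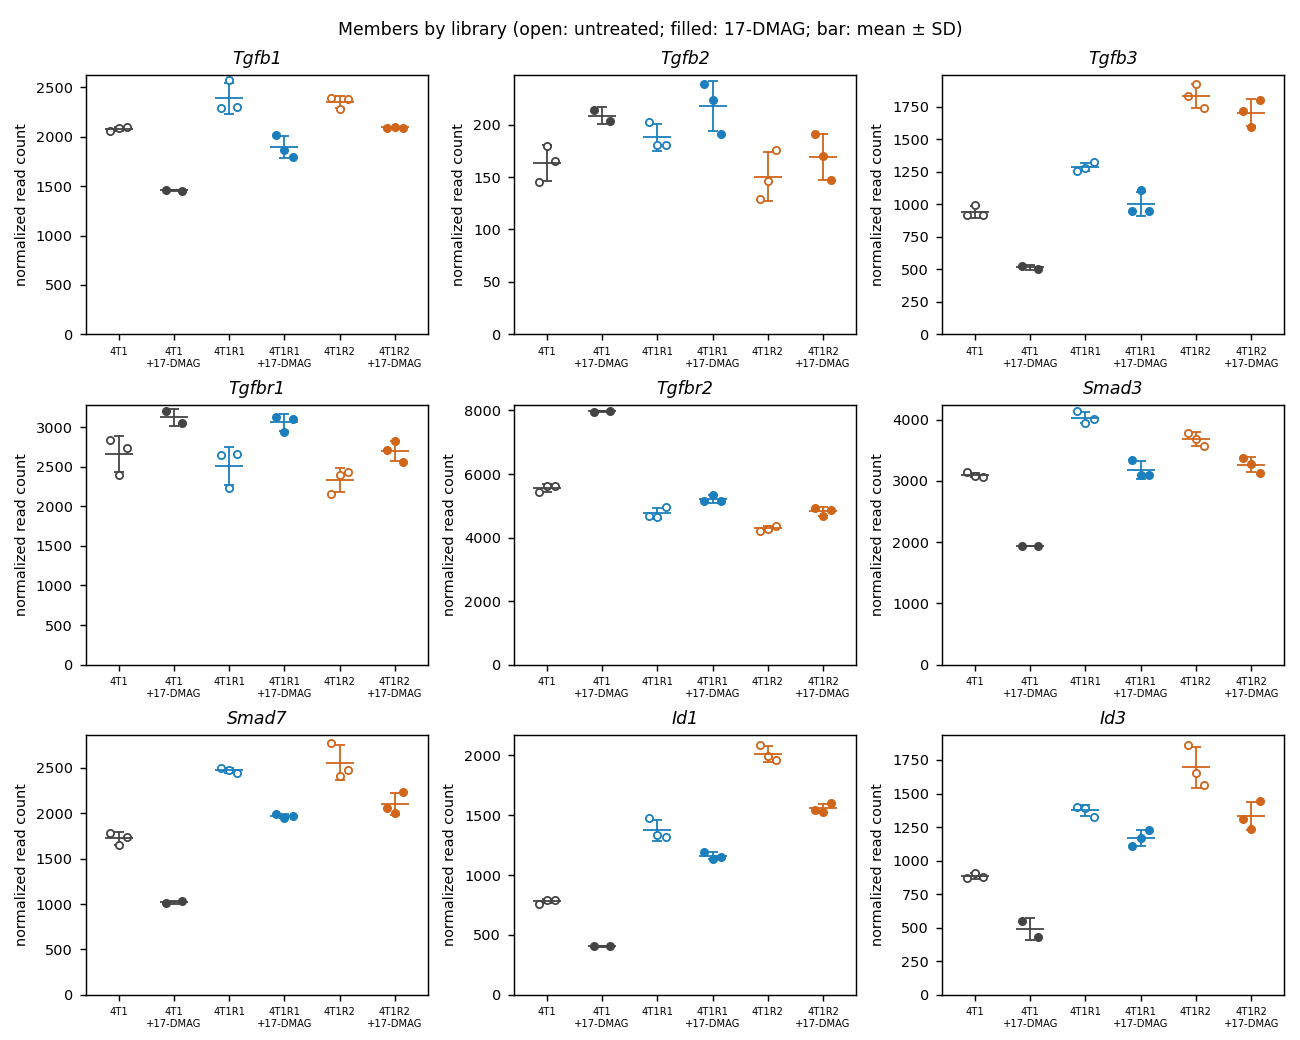
Normalized read counts (y axis, from 0) of the 9 members in each library of the 6 groups (x axis), with open points for untreated and filled points for 17-DMAG-treated libraries, and bars for the mean ± SD. In treated 4T1 the ID genes, Smad3, Smad7, Tgfb1 and Tgfb3 sit below every other group, and Tgfbr2 sits above every other group, at 7976 normalized counts against 5560 in untreated 4T1.

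The untreated populations were compared to learn how the selected populations differ from 4T1 without the drug. In 4T1R1, 6 of the 9 members were higher than in 4T1, 1 was lower and 2 did not pass the test, where 25.2% of all genes tested were higher and 27.5% lower. In 4T1R2, 6 members were higher, 2 were lower and 1 did not pass, where 25.6% of all genes were higher and 26.9% lower. Tgfb1, Tgfb3, Smad3, Smad7, Id1 and Id3 were the higher members in both comparisons, which share the untreated 4T1 libraries. The median log2 fold change of the 9 members was 0.38 in 4T1R1 and 0.25 in 4T1R2, against 0.0075 and 0.0068 for all genes tested. In bulk RNA, fewer cells of a type and less RNA per cell cannot be told apart.

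Among the ligands, Tgfb3 (chr12:86056745-86079041, − strand) differed most. Its libraries held 918.7, 993.8 and 916.7 normalized counts in untreated 4T1, 1256, 1282 and 1324 in 4T1R1, and 1835, 1926 and 1739 in 4T1R2. The 3 sets did not overlap and 4T1R2 was the highest. The log2 fold change was 0.45 (SE 0.060, adjusted p = 3.83e-08) in 4T1R1 and 0.96 (SE 0.060, adjusted p = 2.56e-17) in 4T1R2. Tgfb1 (chr7:25687002-25705077, + strand), the most widely expressed ligand of the family, had 2054, 2085 and 2094 normalized counts in 4T1, 2292, 2571 and 2297 in 4T1R1, and 2391, 2281 and 2380 in 4T1R2. Every library of the selected populations lay above every 4T1 library, by 14.8% in the fit for 4T1R1 (adjusted p = 0.000271) and 13.2% for 4T1R2 (adjusted p = 0.00105). Tgfb2 (chr1:186622792-186705989, − strand) passed in neither comparison, with log2 fold changes of 0.20 (95% confidence interval -0.063 to 0.47) and -0.12 (-0.40 to 0.16). Exons of Tgfb2 overlap those of the antisense gene Gm29491, and exons of Tgfb3 overlap Gm37804 and Gm48008 on the other strand. How the counting used strand is not given in the sources used here, so reads of these 2 ligands and of their antisense partners cannot be told apart.

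Of the receptors, Tgfbr2 was lower in both selected populations. Tgfbr2 (chr9:116084293-116175360, − strand), which binds the ligand, had 5432, 5630 and 5619 normalized counts in untreated 4T1. It had 4684, 4636 and 4969 in 4T1R1 and 4221, 4275 and 4376 in 4T1R2. The 3 sets did not overlap, with 4T1 the highest and 4T1R2 the lowest. The log2 fold change was -0.22 (SE 0.033, adjusted p = 2.67e-07) in 4T1R1 and -0.37 (SE 0.034, adjusted p = 1.31e-12) in 4T1R2. Tgfbr1 (chr4:47353222-47414931, + strand), the signalling kinase, had 2837, 2397 and 2735 in 4T1, 2642, 2227 and 2657 in 4T1R1, and 2157, 2400 and 2428 in 4T1R2. Its groups overlapped, and the lower value in 4T1R2, -0.19 on the log2 scale (SE 0.056, adjusted p = 0.00357), did not pass without replicate 1 of untreated 4T1R2 (-0.14, adjusted p = 0.0609). In 4T1R1 it was -0.082 (interval -0.19 to 0.030, adjusted p = 0.218), and without replicate 2 of untreated 4T1 it was -0.15 (adjusted p = 0.0237).

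Both SMAD genes were higher in the selected populations. Smad3 (chr9:63646767-63757994, − strand), which carries the receptor's signal to the nucleus, had 3138, 3075 and 3071 normalized counts in untreated 4T1, 4133, 3952 and 4005 in 4T1R1, and 3785, 3687 and 3561 in 4T1R2. Here 4T1R1 was the highest and no groups overlapped, with log2 fold changes of 0.38 (SE 0.038, adjusted p = 2.57e-11) and 0.25 (SE 0.038, adjusted p = 5.7e-07). Smad7 (chr18:75367529-75395935, + strand), the inhibitory SMAD, had 1784, 1646 and 1740 in 4T1, 2493, 2473 and 2447 in 4T1R1, and 2773, 2411 and 2477 in 4T1R2. The selected populations lay above 4T1 and overlapped each other. The log2 fold changes were 0.52 (SE 0.048, adjusted p = 3.36e-12) and 0.57 (SE 0.048, adjusted p = 2.82e-13).

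Both ID genes were higher in the selected populations, and Id1 had the largest log2 fold change of the 9 members in each. Id1 (chr2:152736251-152737410, + strand), an inhibitor of bHLH factors, had 762.3, 792.9 and 791.9 normalized counts in untreated 4T1, 1477, 1334 and 1315 in 4T1R1, and 2086, 1995 and 1959 in 4T1R2. No groups overlapped, and the log2 fold change was 0.81 (SE 0.054, adjusted p = 2.69e-16) in 4T1R1 and 1.36 (SE 0.054, adjusted p = 7.36e-24) in 4T1R2. Id3 (chr4:136143497-136145755, + strand), a second gene of the family, had 869, 907.2 and 881.6 in 4T1, 1397, 1396 and 1328 in 4T1R1, and 1864, 1655 and 1567 in 4T1R2. Its groups stood in the same order without overlap, with log2 fold changes of 0.63 (SE 0.067, adjusted p = 1.44e-10) and 0.94 (SE 0.067, adjusted p = 1.73e-15).

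**Figure D2:**
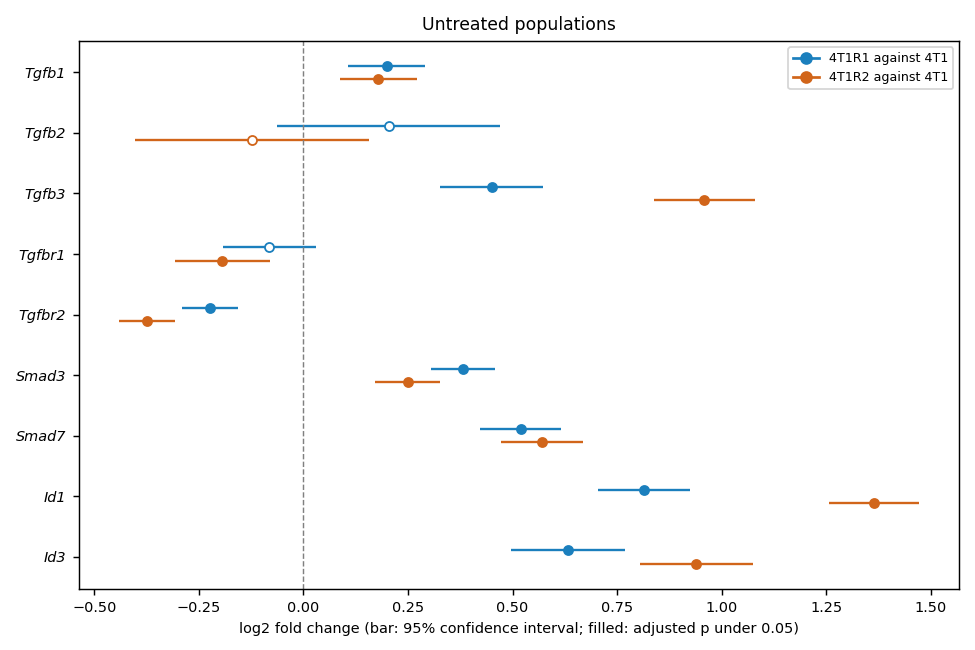
Log2 fold change (x axis) of each member (y axis) in untreated 4T1R1 (blue) and 4T1R2 (orange) against untreated 4T1, with 95% confidence intervals as bars and filled points for an adjusted p under 0.05. Id1 lies farthest from 0, at 0.81 in 4T1R1 and 1.36 in 4T1R2, and Tgfbr2 lies below 0 in both.

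Between the selected populations, 3 members were higher in untreated 4T1R2 than in untreated 4T1R1, 2 were lower and 4 did not pass, where 19.7% of all genes tested were higher and 19.0% lower. Id1 was higher by 0.55 on the log2 scale (SE 0.051, adjusted p = 8.73e-12), Tgfb3 by 0.51 (SE 0.058, adjusted p = 1.86e-09) and Id3 by 0.31 (SE 0.064, adjusted p = 0.00015). Tgfbr2 was at -0.15 (SE 0.034, adjusted p = 0.000342) and Smad3 at -0.13 (SE 0.038, adjusted p = 0.00475). Smad7 and Tgfb1 differed by 0.051 (interval -0.044 to 0.15) and -0.020 (-0.11 to 0.071). Tgfb2 was at -0.33 (adjusted p = 0.0522) and passed with total-count scaling (adjusted p = 0.0483), with no filter (0.049), without Rn45s (0.0486), and at -0.46 without replicate 3 of untreated 4T1R2 (adjusted p = 0.0159). Tgfbr1 was at -0.11 (adjusted p = 0.115) and passed with no filter (adjusted p = 0.0261) and without replicate 2 of untreated 4T1R1 (-0.19, adjusted p = 0.00348).

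After 17-DMAG, 6 of the 9 members fell in 4T1 and the other 3 rose, where 17.9% of all genes tested fell and 18.4% rose. In 4T1R1, 6 fell, 2 rose and 1 did not pass, where 14.3% of all genes fell and 13.9% rose. In 4T1R2, 5 fell, 2 rose and 2 did not pass, where 4.35% of all genes fell and 6.18% rose. The members had a median log2 fold change of -0.67 for 4T1, -0.25 for 4T1R1 and -0.17 for 4T1R2, against 0.00065, -0.0086 and -0.0019 for all genes. Of all genes called, 50.7%, 49.2% and 58.7% rose in 4T1, 4T1R1 and 4T1R2, and with libraries scaled by total counts alone these shares were 21.6%, 64.2% and 24.2%. That scaling moved the median of all genes in 4T1 by -0.115 on the log2 scale.

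The ID genes and Tgfb3 fell most in 4T1. The treated 4T1 samples, given as the averaged pair and then replicate 3, held 404.4 and 409.4 normalized counts of Id1, a fall of 48.0% (log2 fold change -0.94, SE 0.070, adjusted p = 1.44e-14). Id3 read 549.6 and 434.2, a log2 fold change of -0.84 (SE 0.084, adjusted p = 7e-11), and its treated samples differed from each other more, relative to their mean, than those of any other member. Both stood below every untreated 4T1 library. In 4T1R1 the treated libraries held 1192, 1135 and 1152 of Id1 and 1111, 1169 and 1231 of Id3, with log2 fold changes of -0.25 (SE 0.052, adjusted p = 0.000359) and -0.23 (SE 0.065, adjusted p = 0.00611). Without replicate 1 of treated 4T1R1 the fall of Id3 was -0.20 and missed the threshold (adjusted p = 0.0523). In 4T1R2 they held 1546, 1527 and 1601 of Id1 and 1310, 1239 and 1443 of Id3, with log2 fold changes of -0.37 (SE 0.050, adjusted p = 8.11e-07) and -0.35 (SE 0.064, adjusted p = 0.000126). In both selected populations the treated libraries lay below the untreated ones of the same population and above every untreated 4T1 library, a comparison across treatments that was not tested.

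Both SMAD genes fell in all 3 populations. Smad3 had 1942 and 1939 normalized counts in treated 4T1, 3346, 3091 and 3094 in treated 4T1R1, and 3373, 3279 and 3133 in treated 4T1R2, in each case below the untreated libraries. The log2 fold changes were -0.67 (SE 0.045, adjusted p = 4.9e-16), -0.34 (SE 0.038, adjusted p = 2.89e-09) and -0.17 (SE 0.038, adjusted p = 0.0015). Smad7 had 1007 and 1030, then 1991, 1944 and 1969, and then 2059, 2006 and 2237 in the same groups. These too lay below the untreated libraries, with log2 fold changes of -0.76 (SE 0.058, adjusted p = 3.55e-14), -0.33 (SE 0.047, adjusted p = 8.68e-07) and -0.29 (SE 0.047, adjusted p = 3.24e-05).

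Of the ligands, Tgfb3 fell from a mean of 943.1 to 515.1 normalized counts in 4T1 (samples 527.9 and 502.2, log2 fold change -0.87, SE 0.075, adjusted p = 1.15e-12). In 4T1R1 it read 950.1, 1111 and 946.1 after treatment, a log2 fold change of -0.36 (SE 0.060, adjusted p = 1.1e-05). In 4T1R2 it read 1718, 1596 and 1800, which overlapped the untreated libraries (-0.10, interval -0.22 to 0.0088, adjusted p = 0.264). Tgfb1 read 1460 and 1451 in treated 4T1, 2012, 1866 and 1795 in treated 4T1R1, and 2090, 2100 and 2090 in treated 4T1R2, below the untreated libraries each time. Its log2 fold changes were -0.51 (SE 0.053, adjusted p = 1.33e-10), -0.33 (SE 0.046, adjusted p = 3.03e-07) and -0.17 (SE 0.045, adjusted p = 0.0113). The last was -0.16 and missed the threshold without replicate 1 (adjusted p = 0.0557) or replicate 3 (adjusted p = 0.0521) of untreated 4T1R2. Tgfb2 rose in 4T1, from 145, 179.5 and 164.8 to 214 and 203.1 normalized counts (log2 fold change 0.36, SE 0.14, adjusted p = 0.0481). This call was lost with RLE scaling (adjusted p = 0.0516), a minimum of 10 counts (0.0539), DESeq2 (0.064) and total-count scaling (0.19). It was also lost without replicate 1 of untreated 4T1 (0.28, adjusted p = 0.177), replicate 3 of untreated 4T1 (0.37, 0.0805), replicate 1 of treated 4T1 (0.31, 0.0902) or replicate 3 of treated 4T1 (0.39, 0.106). In 4T1R1 and 4T1R2 Tgfb2 was at 0.22 (adjusted p = 0.217) and 0.18 (adjusted p = 0.468), with overlapping libraries.

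The receptors rose. Tgfbr2 had 7965 and 7987 normalized counts in treated 4T1, 43.4% above the untreated level (log2 fold change 0.52, SE 0.036, adjusted p = 1.2e-15). In treated 4T1R1 it had 5144, 5344 and 5153, and in treated 4T1R2 4936, 4676 and 4869. These lay above the untreated libraries of the same population, with log2 fold changes of 0.13 (SE 0.033, adjusted p = 0.00246) and 0.17 (SE 0.034, adjusted p = 0.000403), and below every untreated 4T1 library. Tgfbr1 had 3197 and 3049 in treated 4T1, 3132, 2940 and 3104 in treated 4T1R1, and 2706, 2818 and 2560 in treated 4T1R2. The treated libraries lay above the untreated ones, with log2 fold changes of 0.23 (SE 0.060, adjusted p = 0.00182), 0.28 (SE 0.055, adjusted p = 9.48e-05) and 0.21 (SE 0.056, adjusted p = 0.0083). The call in 4T1 was lost with total-count scaling (0.12, adjusted p = 0.147). The call in 4T1R2 was lost with total-count scaling (adjusted p = 0.0597), DESeq2 (0.0603), without replicate 1 of untreated 4T1R2 (0.16, adjusted p = 0.108) and without replicate 2 of treated 4T1R2 (0.18, adjusted p = 0.0635).

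**Figure D3:**
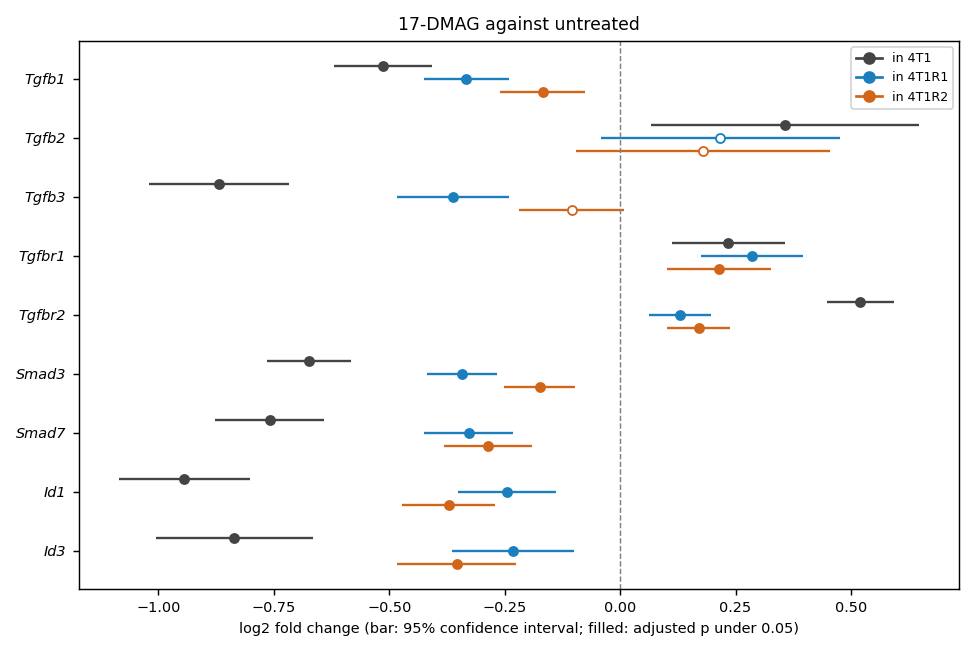
Log2 fold change (x axis) of each member (y axis) after 17-DMAG against untreated in 4T1 (grey), 4T1R1 (blue) and 4T1R2 (orange), with 95% confidence intervals as bars and filled points for an adjusted p under 0.05. The grey points of the SMAD, ID and Tgfb3 genes lie farthest below 0, at -0.67 to -0.94, and the receptors lie above 0 in all 3 populations.

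Markers of other cell types were few. Of 6 fibroblast markers, Pdgfra was the only one above 20 normalized counts in any library, Lum was at 0 throughout and 3 or 4 were at or under 3 counts in each group. The summed list stood at 681.8 to 764.4 normalized counts in untreated 4T1, 389.1 to 412.6 in treated 4T1, 828.2 to 876.6 in untreated and 704.6 to 763.6 in treated 4T1R1, and 906.3 to 1036 in untreated and 785.7 to 898.4 in treated 4T1R2. This sum moved in the same directions as Id1 and Smad7, and its part in their changes was not tested. Of 6 leukocyte markers 2 or 3 were at or under 3 counts in each group. Their sum was 145 to 204.8 in untreated and 176.2 to 208.5 in treated 4T1, 220.1 to 225.3 in untreated and 200.4 to 225.4 in treated 4T1R1, and 217.7 to 242.6 in untreated and 209.4 to 235.4 in treated 4T1R2. In the untreated libraries it was higher in both selected populations than in 4T1 without overlap, as were the 6 members called higher, and its part in their differences was not tested. The 4 endothelial markers, of which 1 to 3 were at or under 3 counts, summed to 4.32 to 17.6.

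Whether the response differed between populations was tested directly, as the difference of log2 fold changes. In 4T1R1 against 4T1, 5 members had a higher response, 1 a lower and 3 did not pass, where 9.16% of all genes tested were higher and 9.08% lower. In 4T1R2 against 4T1, 6 were higher, 1 was lower and 2 did not pass, where 9.62% of all genes were higher and 8.16% lower. A higher value here means a smaller fall, and the 2 tests share the 4T1 libraries. Of all genes called, 50.2% and 54.1% were higher, and with total-count scaling 89.4% and 76.8%. That scaling moved the median of all genes in the 4T1R1 test by 0.149 on the log2 scale.

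The differences were 0.70 (SE 0.088, adjusted p = 7.89e-08) in 4T1R1 and 0.57 (SE 0.086, adjusted p = 2.31e-06) in 4T1R2 for Id1. For Id3 they were 0.60 (SE 0.11, adjusted p = 4.5e-05) and 0.48 (SE 0.11, adjusted p = 0.000763). So the log2 fall of both ID genes was smaller in each selected population. Tgfb3 differed by 0.51 (SE 0.096, adjusted p = 0.00013) and 0.76 (SE 0.094, adjusted p = 3.36e-08), Smad3 by 0.33 (SE 0.059, adjusted p = 4.53e-05) and 0.50 (SE 0.059, adjusted p = 1.14e-08), and Smad7 by 0.43 (SE 0.075, adjusted p = 3.63e-05) and 0.47 (SE 0.075, adjusted p = 5.56e-06). The rise of Tgfbr2 was smaller in both, by -0.39 (SE 0.049, adjusted p = 7.03e-08) and -0.35 (SE 0.049, adjusted p = 5.56e-07), and with total-count scaling the 4T1R1 value was -0.24 (adjusted p = 0.000328). Tgfb1 differed by 0.35 in 4T1R2 (SE 0.070, adjusted p = 0.000258). In 4T1R1 it was at 0.18 (adjusted p = 0.0672). It passed there with total-count scaling (0.33, adjusted p = 0.000431), a minimum of 10 counts (0.19, 0.0408) and 18 separate libraries (0.18, 0.0346), and with the replicate number as a block it was 0.18 (0.0394). It also passed without replicate 2 of untreated 4T1R1 (0.24, 0.00935) or replicate 3 of treated 4T1R1 (0.22, 0.0333). Tgfbr1 did not pass, at 0.051 (interval -0.11 to 0.22) and -0.020 (-0.19 to 0.15), and neither did Tgfb2, at -0.14 (-0.53 to 0.25) and -0.18 (-0.58 to 0.22).

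Between 4T1R2 and 4T1R1, edgeR called 0 of the 9 members for a different response, where 1.21% of all genes tested were higher and 0.918% lower. At an unadjusted p under 0.05 there were 3, and DESeq2 gave 0 adjusted and 3 unadjusted. Of all genes called, 56.9% were higher, and 9.08% with total-count scaling. The largest differences were those of Tgfb3, 0.26 (interval 0.090 to 0.42, adjusted p = 0.0925), Smad3, 0.17 (0.060 to 0.28, adjusted p = 0.0892) and Tgfb1, 0.17 (0.035 to 0.30, adjusted p = 0.186). Tgfb3 passed with no filter (0.26, adjusted p = 0.0455), without replicate 2 of treated 4T1R1 (0.34, 0.0208) and without replicate 2 of treated 4T1R2 (0.30, 0.0413), and Smad3 passed without replicate 1 of treated 4T1R1 (0.21, 0.0442). The intervals for Id1 and Id3 were -0.27 to 0.021 and -0.31 to 0.063.

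Id2 and Id4 complete the ID family. Id2 had 856.6, 730.9 and 856.2 normalized counts in untreated 4T1, 1217, 1135 and 1180 in 4T1R1, and 2428, 2076 and 1794 in 4T1R2. These groups did not overlap, and Id2 was higher by 0.53 (SE 0.072, adjusted p = 5.11e-08) in 4T1R1 and 1.37 (SE 0.070, adjusted p = 5.57e-20) in 4T1R2 on the log2 scale. The log2 fold change of Id2 after 17-DMAG was -0.84 for 4T1 (adjusted p = 4.03e-10), -0.31 for 4T1R1 (0.000831) and -0.63 for 4T1R2 (2.96e-09). The difference of these falls passed for 4T1R1 against 4T1 (0.53, SE 0.12, adjusted p = 0.000763), and for 4T1R2 against 4T1 it was 0.21 (SE 0.11, adjusted p = 0.214). Id4 was scarce, at 14.6 to 78.0 normalized counts in all libraries. It was higher in untreated 4T1R2 than in untreated 4T1 (66.14 against 35.72, log2 fold change 0.89, SE 0.30, adjusted p = 0.0103) and passed no test of the drug. Among bHLH partners of ID proteins, the E-protein gene Tcf4 was lower in untreated 4T1R1 (-0.56, adjusted p = 7.32e-16) and 4T1R2 (-0.43, adjusted p = 2.43e-12). Tcf3 was at 0.21 (adjusted p = 0.000215) and 0.13 (adjusted p = 0.0259). Tcf12 had means of 3435 ± 79.4 normalized counts in untreated 4T1, 3169 ± 157 in 4T1R1 and 3328 ± 76.6 in 4T1R2. Of the 5 other ID and partner genes tested, 2 were higher and 2 lower in untreated 4T1R1, and 3 and 1 in 4T1R2. Of all genes tested, 25.2% were higher and 27.5% lower in 4T1R1, and 25.6% and 26.9% in 4T1R2. The values of Tcf3, Tcf4 and Tcf12, of Id2 in the comparisons where it changed less than 2-fold and of Id4 are given after they were seen.

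**Figure D4:**
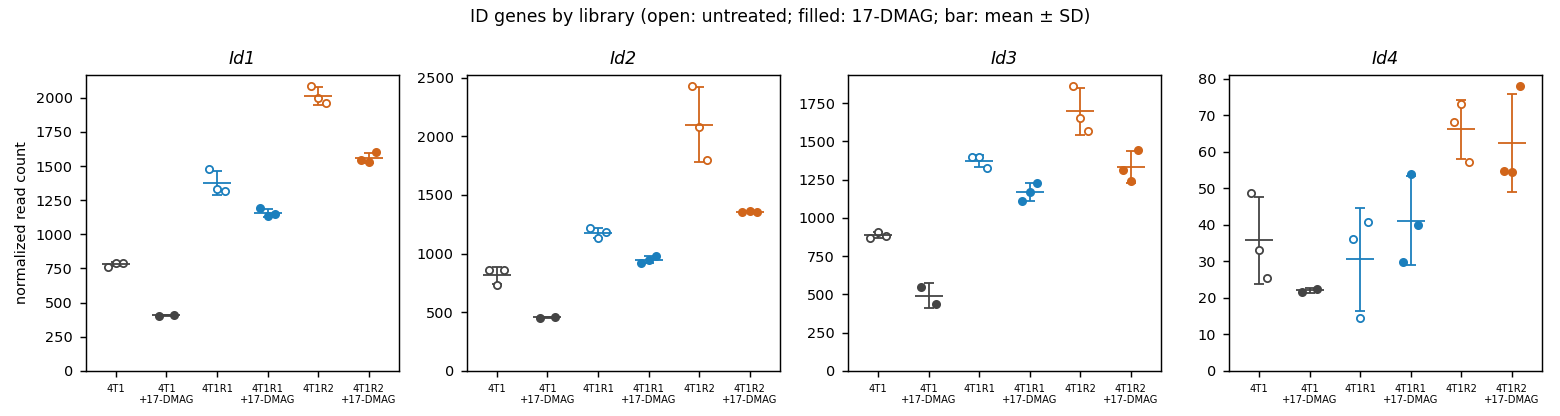
Normalized read counts (y axes, each from 0 on its own scale) of Id1, Id2, Id3 and Id4 by library in the 6 groups (x axis), open for untreated and filled for 17-DMAG, with bars for the mean ± SD. Id1, Id2 and Id3 each rise from 4T1 to 4T1R1 to 4T1R2 when untreated, while the Id4 libraries stay under 80.

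Across the whole pathway, 74 further genes were listed and 56 of them were tested. In untreated 4T1R1 against 4T1, 17 were higher, 21 lower and 18 did not pass, with a median log2 fold change of -0.047, and in 4T1R2 the counts were 18, 24 and 14, with a median of -0.060. After 17-DMAG 12 rose and 17 fell in 4T1, 6 rose and 15 fell in 4T1R1, and 1 rose and 10 fell in 4T1R2. Of all genes tested, 18.4% rose and 17.9% fell in 4T1, 13.9% and 14.3% in 4T1R1, and 6.18% and 4.35% in 4T1R2, and in the untreated comparisons 25.2% were higher and 27.5% lower in 4T1R1, and 25.6% and 26.9% in 4T1R2. In the difference of responses, 10 genes were higher and 7 lower for 4T1R1 against 4T1, and 11 and 4 for 4T1R2 against 4T1. Of all genes tested, 9.16% were higher and 9.08% lower in the first of these tests, and 9.62% and 8.16% in the other.

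Tgfbr3 (betaglycan), a co-receptor that presents ligand to Tgfbr2, had 215.4, 215.9 and 260.4 normalized counts in untreated 4T1, 1329, 1425 and 1498 in 4T1R1, and 1605, 1678 and 1725 in 4T1R2. No groups overlapped, and it was higher by 2.62 (SE 0.077, adjusted p = 3.24e-28) and 2.85 (SE 0.077, adjusted p = 1.53e-29) on the log2 scale. In the list of 8 receptors tested, to which Tgfbr3 belongs, 3 were higher and 1 lower in 4T1R1, and 3 and 3 in 4T1R2, Tgfbr3 included. For this list and those below, 25.2% of all genes tested were higher and 27.5% lower in 4T1R1. In 4T1R2 these shares were 25.6% and 26.9%. Ltbp2, a matrix protein related to the latent TGF-beta binding proteins, had a mean of 1825 ± 43.1 (SD, n = 3) in untreated 4T1, 7124 ± 359 in 4T1R1 and 6001 ± 190 in 4T1R2. It was higher by 1.97 and 1.72 on the log2 scale (adjusted p = 6.6e-33 and 1.37e-30), and its log2 fold change after 17-DMAG was -0.57 for 4T1, -0.37 for 4T1R1 and -0.33 for 4T1R2. Of the 8 latency and activation genes tested, Ltbp2 and Itgb6, an integrin chain that releases the ligand, were the 2 that were higher, and 5 were lower in each selected population. Itgb6 rose from 52.94 ± 10.1 to 111.8 ± 24.2 in 4T1R1 (log2 fold change 1.07, adjusted p = 3.67e-05) and 109.6 ± 17.1 in 4T1R2 (1.04, adjusted p = 7.65e-05). Of the 5 other ligands tested none was higher in either. Bmp7, a BMP ligand, was lower, at 212.9 ± 34.1 in 4T1R1 and 220.2 ± 39.3 in 4T1R2 against 579.2 in 4T1 (log2 fold changes -1.45 and -1.40, adjusted p = 3.93e-15 and 1.76e-14).

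The listed target genes went in both directions. Of 13 tested, 5 were higher and 5 lower in untreated 4T1R1, and 4 and 4 in 4T1R2. After 17-DMAG in 4T1, 4 rose and 3 fell. The 5 higher genes in 4T1R1 include 2 scarce ones, Lox and Col1a1, which are named after their values were seen. Their means were 0 and 7.522 normalized counts in untreated 4T1, and 6.602 and 16.99 in untreated 4T1R1. Of all genes tested, 25.2% were higher and 27.5% lower in untreated 4T1R1, and 25.6% and 26.9% in 4T1R2. After 17-DMAG in 4T1, 18.4% of all genes rose and 17.9% fell. Ctgf, a matricellular target of TGF-beta and of YAP, had 3263 ± 196 normalized counts in untreated 4T1, 1258 ± 39.3 in 4T1R1 and 1560 ± 62.0 in 4T1R2, a log2 difference of -1.37 (adjusted p = 1.94e-24) and -1.06 (adjusted p = 9.21e-21). It rose after 17-DMAG in 4T1 (0.44, adjusted p = 4.48e-09), 4T1R1 (0.37, 1.07e-06) and 4T1R2 (0.22, 0.00533). Cdkn1a, which encodes the cell cycle inhibitor p21, fell from 405, 462.7 and 367.7 to 237.6 and 170.2 in 4T1 (-1.03, SE 0.12, adjusted p = 4.27e-09). Its treated libraries were also below the untreated ones in 4T1R1 (283.8 to 307.9 against 402.6 to 454.1) and 4T1R2 (329.9 to 343.6 against 431.7 to 533.2). These 2 ranges are given after they were seen.

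Of 6 other SMAD genes tested, 3 were higher and 1 lower in untreated 4T1R1, and 3 and 2 in 4T1R2. After 17-DMAG in 4T1, 2 of them rose and 1 fell. Of 11 inhibitor and feedback genes tested, the same counts were 2 and 5, 3 and 6, and 3 and 4. The shares of all genes tested are those given with the target genes. Among the inhibitors, Fst, which encodes the activin antagonist follistatin, was lower in 4T1R2, at 54.19 ± 6.93 normalized counts against 118.4 ± 16 in untreated 4T1 (log2 fold change -1.14, adjusted p = 3.11e-06). The following 3 genes were chosen after their values were seen. Skil, which encodes a SMAD co-repressor, had 3225, 3238 and 3268 in untreated 4T1, 4603, 4176 and 4731 in 4T1R1, and 5725, 5432 and 5180 in 4T1R2, without overlap (0.47 and 0.75, adjusted p = 1.78e-13 and 1.18e-19). It fell by 0.78 in 4T1 after 17-DMAG and by 0.21 in each selected population, and the difference of these responses was 0.57 for both (adjusted p = 2.04e-09 and 1.21e-09). Smad6, the inhibitory SMAD of the BMP branch, was at 74.16 in untreated 4T1, 128.9 in 4T1R1 and 147.1 in 4T1R2, and fell to 22.99 in treated 4T1 (log2 fold change -1.64, SE 0.27, adjusted p = 2.84e-06). Pmepa1, which encodes a membrane protein that sequesters receptor-activated SMADs, was at 0.0044 in untreated 4T1R1 (adjusted p = 0.956) and higher in untreated 4T1R2, by 0.25 with overlapping libraries (adjusted p = 0.000353). After 17-DMAG its log2 fold change was -0.79 for 4T1 (adjusted p = 1.41e-12), -0.53 for 4T1R1 (5.37e-09) and -0.24 for 4T1R2 (0.00375). Smad2, the partner of Smad3, was lower in untreated 4T1R1 (-0.18, adjusted p = 0.000203) and 4T1R2 (-0.40, adjusted p = 7.54e-11), a value also given after it was seen.

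**Figure D5:**
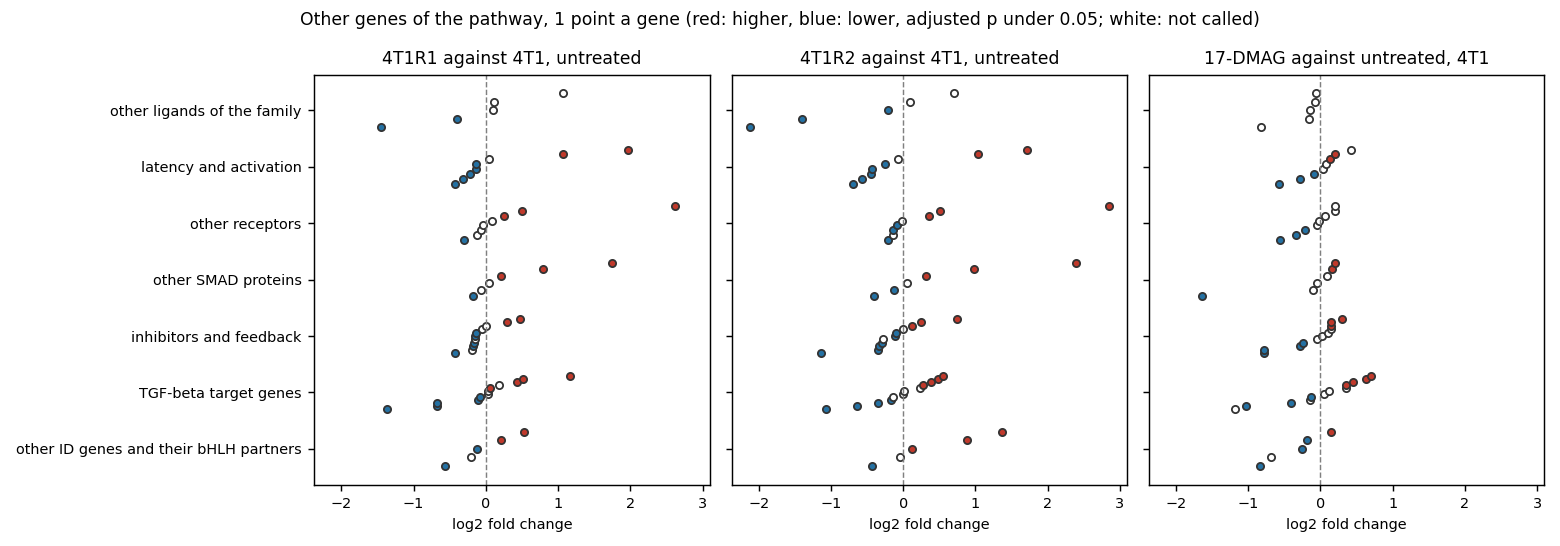
Log2 fold change (x axis, shared scale) of the other pathway genes by list (y axis), 1 point a gene, in untreated 4T1R1 and 4T1R2 against untreated 4T1 and after 17-DMAG in 4T1, red for higher and blue for lower at an adjusted p under 0.05 and white for the rest. The 55 genes drawn lie on both sides of 0 in most lists, with Tgfbr3 farthest to the right, at 2.62 and 2.85. Left out is 1 target gene, Lox, because at least 1 group compared was at or under 3 counts. Its mean was 0 normalized counts in untreated 4T1, 6.602 in untreated 4T1R1 and 2.148 in untreated 4T1R2.

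The genes with the most similar pattern were found from the root mean square difference between group means of log2 normalized counts, over 6 groups and 10329 other genes, with each profile centred on its own mean. For Id1 these were Bcl6 (0.076), which encodes a transcriptional repressor, Rnf152 (0.11) and Cpt1a (0.12), which encodes the carrier enzyme for mitochondrial fatty acid import. Id3 was closest to Padi1 (0.063), Hr (0.075) and Irf2bpl (0.084), and Tgfb3 to Slco4a1 (0.052), Zfp36 (0.12) and Padi1 (0.14). Smad3 was closest to Tonsl (0.038), Ddah2 (0.040) and Trim8 (0.042), and Smad7 to Il4ra (0.048), Hivep2 (0.048) and Acap3 (0.049). Among the members, Id1 and Id3 differed by 0.19, with 13 genes closer to Id1 than Id3 was. Tgfb3 and Id3 differed by 0.18, with 12 genes closer to Tgfb3. Smad3 and Smad7 differed by 0.13, with 150 genes closer to Smad3, and Tgfb1 and Smad3 by 0.12, with 289 closer to Tgfb1. The most alike members on this measure were Tgfb2 and Tgfbr1, at 0.10, with 138 genes closer to Tgfb2. Id1 and Tgfbr2 were the least alike, at 1.03. The groups share the same libraries for every gene, and these values are descriptions without a test.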

How the data were processed

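RNA for 18 libraries of 4T1, 4T1R1 and 4T1R2 was ribosome-depleted and sequenced with a stranded kit. The authors aligned reads to mm10 (GRCm38) with STAR and deposited whole-number counts per gene symbol from featureCounts (Subread 1.6.2; bcl2fastq 2.20 also stands in the submitters' processing notes), without normalization. Strand use and multi-mapping in counting are not given in the sources used here, nor is whether both reads of a pair were counted. Among genes with a low count above 0 in a library, 65.6% to 70.8% had an even count.

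Counts of 17 libraries (2 averaged, see the report) were fitted in 1 model of 6 groups with edgeR 4.0.16 in R 4.3.3, with filterByExpr, TMM and the quasi-likelihood test. P-values were Benjamini-Hochberg adjusted over 13507 genes, threshold 0.05. SE is the log2 fold change over the root of F. The series text calls the libraries biological replicates. P-values measure the spread between these libraries. Further pathway genes were named if they passed the test and changed at least 2-fold, with 100 normalized counts in the higher group, or after their values were seen, as marked. Genes alike were the 3 nearest for each member spanning 1 log2 or more. Alternatives were RLE and total-count scaling, other filters, DESeq2 1.42.0, only the groups compared, 18 separate libraries, a replicate block, no Rn45s, and each library left out. The code was tested on simulated data. Figures used matplotlib 3.10.9. Members and lists were chosen with earlier results of these data known, and AGAC was added to the motifs later.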

Additional observations from a re-analysis of the deposited data

Results flagged for a closer look

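For 13 results the response to 17-DMAG differed between a selected population and 4T1 in the test of the difference itself. The log2 differences against 4T1 in 4T1R1 were 0.70 for Id1, 0.60 for Id3, 0.51 for Tgfb3, 0.43 for Smad7, 0.33 for Smad3 and -0.39 for Tgfbr2. In 4T1R2 they were 0.76 for Tgfb3, 0.57 for Id1, 0.50 for Smad3, 0.48 for Id3, 0.47 for Smad7, 0.35 for Tgfb1 and -0.35 for Tgfbr2. Each rests on the same untreated and treated 4T1 samples, the latter with n = 2. Groups of 3 or fewer were not tested for samples that stand apart.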

How the results depend on the processing

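Over 729 member values under alternative settings, 709 kept direction and side of the threshold, 7 lost and 9 gained a call, and 4 turned. The 4 that turned were uncalled differences of responses, all under total-count scaling: Tgfb2 for 4T1R1 minus 4T1 (0.0095), Tgfbr1 for 4T1R2 minus 4T1 (0.050), and Tgfbr2 (-0.040) and Smad7 (-0.037) for 4T1R2 minus 4T1R1. With 1 library left out, 616 of 648 values kept both, 10 lost and 8 gained a call, and 14 turned, none of them called before or after. The ranges were -0.048 to 0.036 for Tgfb1 and -0.015 to 0.089 for Smad7 in untreated 4T1R2 against 4T1R1. For the differences of responses, Tgfbr1 ran from -0.027 to 0.12 (4T1R1 minus 4T1), -0.075 to 0.048 (4T1R2 minus 4T1) and -0.13 to 0.0071 (4T1R2 minus 4T1R1), and in the last also Tgfb2 from -0.15 to 0.092 and Smad7 from -0.0043 to 0.11. The count of members called for 4T1R2 minus 4T1R1 was 0, and 1 with no filter and 0 to 1 with a library left out. The cause of these changes was not tested.

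Over all genes, 2464 were called for 4T1R1 minus 4T1 (3955 with total-count scaling, 1585 without replicate 3 of treated 4T1), 2401 for 4T1R2 minus 4T1 (1565 without that library), 288 for 4T1R2 minus 4T1R1 (672 with total-count scaling, 449 with no filter, 177 without replicate 1 of treated 4T1R1, 183 without replicate 2 of untreated 4T1R2, 155 without replicate 3 of treated 4T1R2) and 1423 for 17-DMAG in 4T1R2 (929 without replicate 1 of treated 4T1R2).

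The labels give replicate numbers but tie them to nothing shared. Same-numbered libraries of different groups correlated at -0.21 to 0.19 in their deviations (median -0.0045, 2 of 45 pairs over 0.1), so the numbers were not treated as pairs. With the replicate block, in a fit of 18 separate libraries, the counts of members called were 7, 8 and 5 for the untreated comparisons and 9, 8 and 7 for 17-DMAG in 4T1, 4T1R1 and 4T1R2. For the differences they were 7, 7 and 0. The first of these was 6 in the main fit, which averaged the pair and had no block, and Tgfb1 made the change. Tgfb1 also passed there with 18 separate libraries and no block (0.18, adjusted p = 0.0346). The intervals of Tgfb2, the member with the lowest read counts, were the widest of the 9 members, and the part of depth in this was not tested.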
